A study of Mus musculus with 2 samples.

Results

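Droplets of a mouse liver single-cell RNA sequencing experiment in which over 25% of the unique molecular identifiers (UMIs, tags that mark single cDNA molecules) came from the 13 protein-coding genes of the mitochondrial genome are described here. Of 32301 barcodes with at least 500 UMIs, 14592 met this rule. They were 5679 of 17298 in the library with barcode suffix 1 (32.8%, 95% interval 32.1% to 33.5%) and 8913 of 15003 in the library with suffix 2 (59.4%, 58.6% to 60.2%). The share of mitochondrial UMIs chose the members, so it is given as a description and was not tested.

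The samples were cells of perfused and digested livers, purified on Percoll. Per the labels, 1 sample had the genotype Cebp KO and 1 the genotype Cebp WT, and both came from mice that had received 40% HFCFD, a high-fat, high-cholesterol and high-fructose feed, over 2 weeks. The study made its knockout by crossing mice with a floxed Cebpa gene to mice that carry Cre under the albumin promoter, which acts in hepatocytes. CEBPA is a transcription factor of differentiated hepatocytes. The labels do not say which suffix belongs to which sample, so the libraries are named by suffix and neither was given a genotype. Each library stood alone and droplets of 1 library are not replicates, so no p-value is given and the intervals cover counting error only. Each lane was planned for up to 6000 cells, while the matrix held 17313 and 15003 barcodes.

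The mitochondrial genome encodes core subunits of the respiratory chain and of ATP synthase, and its transcripts are made, polyadenylated and kept inside the organelle. All other mitochondrial proteins are encoded in the nucleus, translated outside and imported. Messenger RNAs of secreted and membrane proteins are mostly translated on ribosomes bound to the endoplasmic reticulum (ER), those of soluble enzymes mostly on free ribosomes. A high share of mitochondrial UMIs is widely used as a sign of a damaged cell in single-cell work, although hepatocytes are rich in mitochondria.

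The marker gene of these droplets, mt-Nd4l, codes for a small subunit of complex I. It lies at chrM:9877-10173 on the plus strand of GRCm38 and shares its last 7 bases with the start of mt-Nd4, at chrM:10167-11544, another complex I gene. The genes of the ATP synthase subunits, mt-Atp8 at chrM:7766-7969 and mt-Atp6 at chrM:7927-8607, share 43 bases in the same way. The junctions are printed because short overlapping genes on 1 transcript limit what a UMI can be assigned to. Each stretch is 60 bases of the plus strand, and capitals mark the bases that both genes of a pair share.
End of mt-Nd4l, chrM:10114-10173: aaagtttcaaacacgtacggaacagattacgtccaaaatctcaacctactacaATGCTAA
Start of mt-Nd4, chrM:10167-10226: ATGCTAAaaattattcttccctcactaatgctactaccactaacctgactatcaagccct
End of mt-Atp8, chrM:7910-7969: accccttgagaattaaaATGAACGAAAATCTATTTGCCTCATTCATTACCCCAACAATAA
Start of mt-Atp6, chrM:7927-7986: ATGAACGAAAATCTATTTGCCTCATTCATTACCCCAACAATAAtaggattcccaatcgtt

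The mitochondria-rich droplets were shallow in nuclear-encoded RNA and rich in mitochondrial RNA for that depth. Their median was 847 UMIs outside the mitochondrial genes with suffix 1 and 917 with suffix 2, from a median of 373 and 365 genes. To this came a median of 817 and 1038 mitochondrial UMIs. They were compared with hepatocyte reference droplets, which had at most 25% mitochondrial UMIs and at least 5% of UMIs from 10 hepatocyte genes (Apoa1, Apoa2, Apoc3, Ttr, Serpina1c, Trf, Fgb, Ahsg, Hp and Fabp1). The 9587 and 4161 reference droplets held medians of 1161 and 1335 UMIs outside the mitochondrial genes but of only 20 and 46 mitochondrial UMIs. Most reference droplets were therefore shallow and poor in mitochondrial RNA. The 674 and 579 reference droplets with at least 5000 UMIs, called deep reference droplets below, had median mitochondrial shares of 14.7% and 14.6% and served as another comparison. Their medians of 3621.5 and 1676 mitochondrial UMIs were above those of the mitochondria-rich droplets.

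The libraries differed in how the mitochondrial share was spread. With suffix 1, 9214 droplets lay at 0% to 5%, and the number per step of 5 points above 25% ran from 593 to a highest value of 724 at 35% to 40%. With suffix 2, 3502 droplets lay at 0% to 5%, and the numbers climbed from 239 at 25% to 30% to 1446 at 45% to 50%. Both libraries thus had a low point and a second rise, with suffix 1 from 444 at 15% to 20%, and with suffix 2 from the 239 at 25% to 30%. Droplets over 50% numbered 2494 (14.4%) with suffix 1 and 5022 (33.5%) with suffix 2. Just outside the limit, at 20% to 25%, lay 458 droplets with a median of 1621 UMIs outside the mitochondrial genes with suffix 1, and 327 with a median of 3812 with suffix 2. Just inside it, at 25% to 30%, the medians were 795 and 2500 UMIs.

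**Figure D1:**
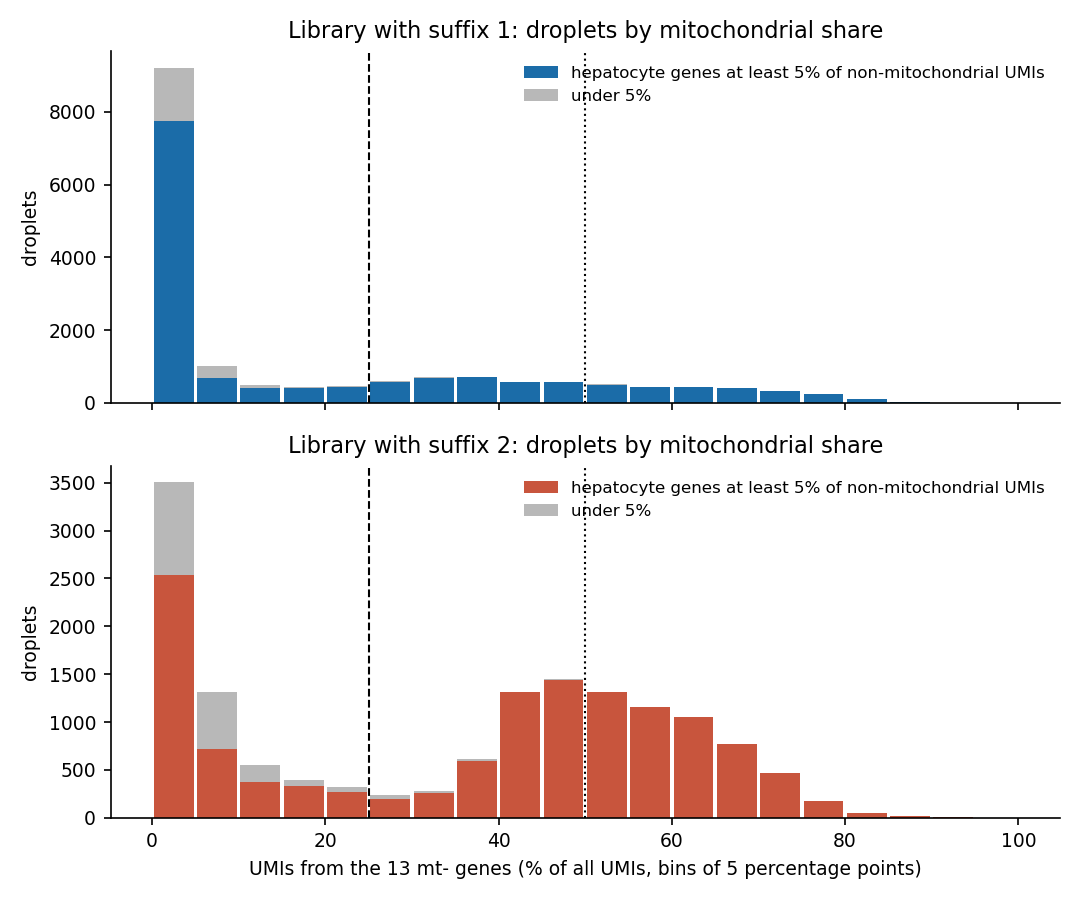
Number of droplets (vertical axis) per 5-point step of the share of UMIs from the 13 mitochondrial genes (horizontal axis, percent), one panel per library, with droplets past and under the hepatocyte cut stacked, a dashed line at 25% and a dotted line at 50%. Above 25%, the library with suffix 2 peaks at 45% to 50% with 1446 droplets and the library with suffix 1 at 35% to 40% with 724 droplets.

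Above 35% the mitochondrial count climbed more steeply with the share than the rest did. With suffix 1, the median of mitochondrial UMIs went from 436 at 35% to 40% to 7073 at 80% to 85%, while the median of other UMIs went from 716 to 1566. With suffix 2, the corresponding medians went from 524 to 4997.5 mitochondrial UMIs and from 844 to 1110 other UMIs. Since the share is made from these counts, this is a description of the rule and not a separate result.

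Nearly all mitochondria-rich droplets carried hepatocyte transcripts. The 10 hepatocyte genes held a median of 13.6% of UMIs outside the mitochondrial genes with suffix 1 and 14.4% with suffix 2. The reference droplets, which had been chosen by these genes, held 11.7% and 13.1%. At 5% of UMIs outside the mitochondrial genes, called the hepatocyte cut, 5575 of 5679 and 8808 of 8913 mitochondria-rich droplets passed. Among all droplets past this hepatocyte cut, 36.6% (35.9% to 37.4%) and 67.6% (66.8% to 68.4%) were over 25% mitochondrial. Under the cut, only 5.0% (4.10% to 6.02%) and 5.34% (4.39% to 6.43%) were. In the deeper lymphoid droplets, defined below, the 10 genes held a median of 2.43% and 2.57%, at median depths of 4351.5 and 3866 UMIs. Alb was seen in 100% of lymphoid droplets in both libraries. The cut is a share of few UMIs in shallow droplets, so passing it does not by itself identify a hepatocyte.

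The 104 and 105 mitochondria-rich droplets under the hepatocyte cut were deeper, with medians of 6524 and 4372 UMIs outside the mitochondrial genes. At least 3 UMIs of the Kupffer cell and macrophage markers (Clec4f, Vsig4, the C1q genes and others) were found in 56 of 104 with suffix 1 (53.8%, 43.8% to 63.7%) and in 46 of 105 with suffix 2 (43.8%, 34.1% to 53.8%). Endothelial markers reached that count in 33.7% and 24.8% of them, erythroid markers in 39.4% and 14.3%, T cell markers in 20.2% and 22.9%, and monocyte and dendritic cell markers in 26.9% and 20%. Droplets of up to 25% mitochondrial UMIs outside the reference had medians of 5174.5 and 4624 UMIs outside the mitochondrial genes. Kupffer cell and macrophage markers reached the count in 26.4% and 36.2% of those, and endothelial markers in 19.9% and 24.4%. Erythroid markers did so in 28.1% and 8.71%, T cell markers in 37.7% and 36.0%, and monocyte and dendritic cell markers in 22.3% and 23.0%. A droplet could count under several lists. Doublets were not removed.

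The mitochondrial transcripts themselves were present in similar proportions in mitochondria-rich and reference droplets, with ratios of their shares between 0.709 and 1.44. The rule used only their sum, and a difference in makeup was not tested. As a share of mitochondrial UMIs, mt-Atp6 was 21.2% in mitochondria-rich and 20% in reference droplets with suffix 1, and 21.7% and 19.8% with suffix 2. The share of mt-Co3, a subunit of complex IV, was 18.4% against 16.0% and 19.4% against 17.1%, and that of mt-Co1, the catalytic subunit of the same complex, was 14.1% against 16.8% and 12% against 14.7%. Subunits of 1 complex thus lay on opposite sides.

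The complex I genes were split as well. The share of mt-Nd2 was 8.22% against 7.13% with suffix 1 and 8.59% against 7.55% with suffix 2. The share of mt-Nd4 was 6.28% against 7.43% and 5.92% against 7.16%, and that of mt-Nd1 was 3.59% against 4.19% and 4.03% against 4.78%. The lowest ratio of all 13 genes was that of the marker mt-Nd4l, the overlapping partner of mt-Nd4 shown above. It made up 0.716% (0.711% to 0.721%) of mitochondrial UMIs in mitochondria-rich and 1.010% (0.998% to 1.02%) in reference droplets with suffix 1, a ratio of 0.709. With suffix 2 it made up 0.593% (0.589% to 0.596%) and 0.814% (0.80% to 0.829%), a ratio of 0.728. In UMIs per droplet, mt-Nd4l was at 13.1 against 2.82 and at 9.96 against 2.97. Deep reference droplets held more, at 36.7 and 18.6. The marker was therefore more abundant per mitochondria-rich droplet than per droplet of the whole reference, but not than per deep reference droplet. It was a smaller part of mitochondrial RNA than in either. Lower shares still were found in lymphoid droplets, at 0.517% and 0.367%, and in all droplets of up to 25% mitochondrial UMIs outside the reference, at 0.61% and 0.401%. The only gene of the light strand, mt-Nd6 at chrM:13552-14070, had shares of 0.157% against 0.109% and 0.143% against 0.101%.

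**Figure D2:**
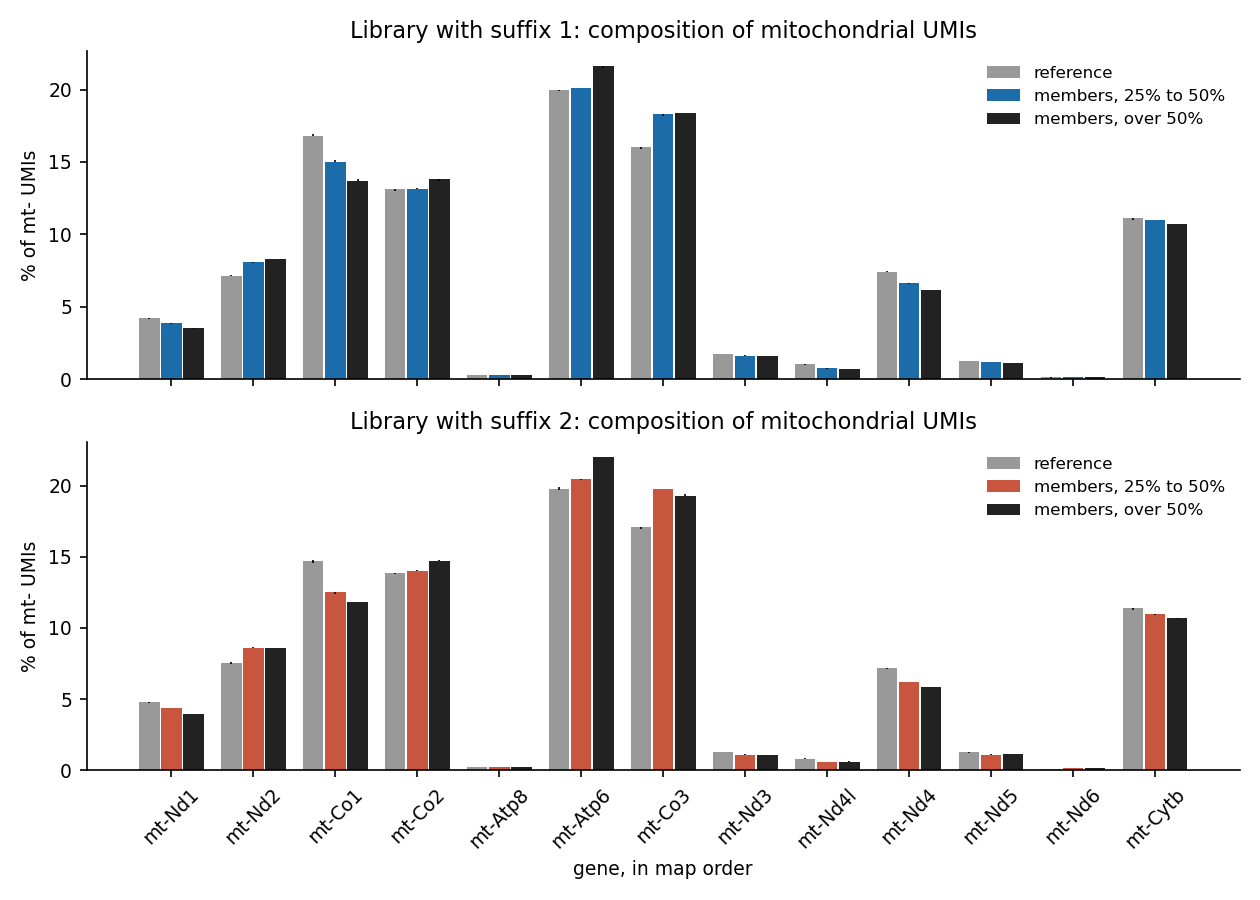
Share of mitochondrial UMIs (percent) held by each of the 13 mitochondrial genes in reference droplets, droplets of 25% to 50% and droplets over 50%, one panel per library. The shares lie close together in all 3 classes, with mt-Co1 lower and mt-Atp6 and mt-Co3 higher in the mitochondria-rich classes of both libraries.

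For nuclear-encoded genes, UMIs were summed over the droplets of a class and scaled to 1000000 UMIs outside the mitochondrial genes (CPM). Genes with at least 10 CPM in either class were compared, and a gene was counted as higher or lower from a 2-fold ratio on. With suffix 1, 738 of 7457 genes (9.90%) were higher in mitochondria-rich droplets and 390 (5.23%) were lower. With the hepatocyte cut applied to both classes, on UMIs outside the mitochondrial genes, the order turned, with 185 of 6942 genes (2.66%) higher and 456 (6.57%) lower. With suffix 2, 249 of 7108 genes (3.50%) were higher and 2370 (33.3%) were lower. The median gene had a log2 ratio of -0.22 with suffix 1 and -0.75 with suffix 2, so the libraries were also read relative to these medians. With the ratios centred on the median gene, 1072 genes were higher and 56 lower with suffix 1, and 1213 were higher and 17 lower with suffix 2. The excess of lower genes with suffix 2 thus held only on the uncentred scale, and the lists below are also placed against the median gene.

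Of 6911 genes compared in both libraries, 5663 (81.9%) lay on the same side of 0, 152 were higher in both and 350 lower in both. Across these genes, which are not independent, the log2 ratios of the libraries had a Pearson r of 0.85 and a Spearman rho of 0.88. The 2 genes at opposite sides were Igkc and Igha, immunoglobulin chains of plasma cells, named here after their values were seen. Igkc was at 367 CPM in mitochondria-rich and 86.2 CPM in reference droplets of the library with suffix 1, and at 167 and 379 CPM in that with suffix 2. Igha was at 111 and 16.8 CPM, then at 30 and 94.0 CPM with suffix 2. With the hepatocyte cut on both sides, the ratios of Igkc and Igha with suffix 1 were 1.14 and 1.55.

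Transcripts of secreted plasma proteins made up more of the nuclear-encoded RNA of mitochondria-rich droplets in both libraries. The list of 34 such genes, without the genes of the rule, held 254857 CPM in mitochondria-rich and 164528 CPM in reference droplets with suffix 1, and 318511 and 189373 CPM with suffix 2. Of the 34 genes, 8 were at least 2-fold higher with suffix 1, 12 with suffix 2, and none was 2-fold lower in either. Of all genes, 9.90% and 3.50% were higher, and 5.23% and 33.3% lower. The median log2 ratio of the list was 0.77 and 0.75, which is 0.99 and 1.5 above that of all genes. Relative to the median gene, 33 and all 34 genes lay above it.

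Apoe, which encodes the apolipoprotein that clears lipoprotein remnants, was also among the 15 genes with the largest ratios in both libraries. With suffix 1, Apoe (chr7:19696109-19699188, minus strand) was at 44686 CPM (44541 to 44832) in mitochondria-rich droplets and at 16746 CPM in reference droplets, a 2.67-fold difference. With suffix 2 it was at 85655 CPM (85486 to 85825) and 28173 CPM, a 3.04-fold difference. The level was higher again among droplets over 50%, at 62588 CPM against 30744 CPM at 25% to 50% with suffix 1 and at 103721 against 61747 CPM with suffix 2. In deep reference droplets it was at 13927 and 21725 CPM. Counted per droplet, Apoe had 63.9 UMIs in mitochondria-rich and 43.1 in reference droplets with suffix 1, and 110 and 84.3 with suffix 2. More Apoe was thus counted per droplet although the droplets held less nuclear-encoded RNA.

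Its neighbour Apoc1 (chr7:19689481-19692660, minus strand), the gene of another lipoprotein component, lay on the other side of 0, though with suffix 2 above the median gene. Apoc1 was at 17393 CPM in mitochondria-rich and 21429 CPM in reference droplets with suffix 1, and at 20202 and 22711 CPM with suffix 2. Albumin, the main protein of plasma, lay between these. Alb (chr5:90460897-90476602, plus strand) was at 65155 against 37992 CPM, a 1.71-fold difference, and at 72441 against 43865 CPM, a 1.65-fold difference. Per droplet, Alb was at 93.2 against 97.9 UMIs with suffix 1 and at 93.3 against 131 UMIs with suffix 2, so its higher CPM went with no more molecules per droplet.

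Other plasma proteins were higher by similar factors. Apob, the structural protein of very low density lipoprotein, was at 4357 against 2061 CPM with suffix 1 and 5065 against 1918 CPM with suffix 2. The complement protein C3 was at 3486 against 1545 CPM and 4702 against 1899 CPM. Pon1, an esterase carried on high density lipoprotein, was at 432 against 165 CPM (2.62-fold) and 1005 against 256 CPM (3.92-fold). The genes past 2-fold in both libraries also included F2 (prothrombin), Plg (plasminogen) and the inter-alpha-trypsin inhibitor chains Itih1 and Itih3. Mup20, a major urinary protein, showed a smaller difference, at 53224 against 41396 CPM and 22462 against 18825 CPM.

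Enzymes that sit in the ER membrane were higher as a list in both libraries. With suffix 1, 11 of 31 genes compared were at least 2-fold higher and 1 was lower, and the median log2 ratio of 0.88 was 1.10 above that of all genes. With suffix 2, 19 of 32 were higher and 2 were lower, with a median of 1.19, which is 1.94 above all genes. Of all genes, 9.90% were higher with suffix 1 and 3.50% with suffix 2, and 5.23% and 33.3% were lower. Relative to the median gene, 29 and 30 genes lay above it. The list held 30687 CPM in mitochondria-rich and 19169 CPM in reference droplets with suffix 1, and 40045 and 20330 CPM with suffix 2.

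Cytochrome P450 enzymes of drug and fatty acid oxidation led this list. Cyp2e1 (chr7:140763739-140774987, plus strand), which oxidises ethanol and other small molecules, was at 2487 CPM (2453 to 2522) in mitochondria-rich and 806 CPM (794 to 817) in reference droplets with suffix 1, a 3.09-fold difference. With suffix 2 it was at 3416 CPM (3382 to 3450) and 822 CPM (806 to 838), a 4.16-fold difference. Against deep reference droplets, at 375 and 367 CPM, the factors were 6.64 and 9.31. Cyp2e1 had 3.56 UMIs per mitochondria-rich droplet against 2.08 per reference droplet, and 4.40 against 2.46.

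Cyp3a11, a main drug-metabolising P450, was at 293 against 71.5 CPM with suffix 1 and 715 against 143 CPM with suffix 2. Cyp2c29 was at 590 against 169 CPM and 966 against 187 CPM, and Cyp2a5 at 133 against 29.2 CPM and 176 against 38.2 CPM. Scd1, the desaturase that makes monounsaturated fatty acids, was at 14521 against 8414 CPM (1.73-fold) and 22263 against 11055 CPM (2.01-fold). These were all on the same side in both libraries.

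Some members of the list were lower. Cyb5a encodes cytochrome b5, whose membrane anchor is at its end and which is inserted after translation. It was at 974 against 1959 CPM (2.01-fold lower) with suffix 1 and 688 against 1595 CPM (2.32-fold lower) with suffix 2. Fmo5, a flavin-containing monooxygenase, was at 442 against 782 CPM and 230 against 558 CPM. The P450 gene Cyp2f2 differed little, at 2244 against 1721 CPM and 1322 against 1133 CPM, and stood at 0.997 and 0.996 of the level in deep reference droplets.

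The 15 genes with the largest ratios in both libraries also held transporters and further enzymes. Slco1b2 and Slco1a1 encode organic anion transporters of the hepatocyte membrane. Slco1b2 was at 531 against 134 CPM (3.97-fold) with suffix 1 and 1416 against 362 CPM (3.91-fold) with suffix 2, and Slco1a1 was 2.65-fold and 2.86-fold higher. The carboxylesterases Ces1c and Ces2a, which stay in the ER lumen or enter plasma, were 2.72-fold and 2.8-fold higher with suffix 1 and 3.31-fold and 2.93-fold higher with suffix 2. Gulo, the last enzyme of ascorbate synthesis, was at 173 against 55.3 CPM and 236 against 58.6 CPM. The complement gene C4b was 2.68-fold and 2.89-fold higher, and Man2b1, a lysosomal mannosidase, 2.72-fold and 2.57-fold. Hbb-bt and H2-Eb1, also among the 15, are given below with the markers of other cells.

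**Figure D3:**
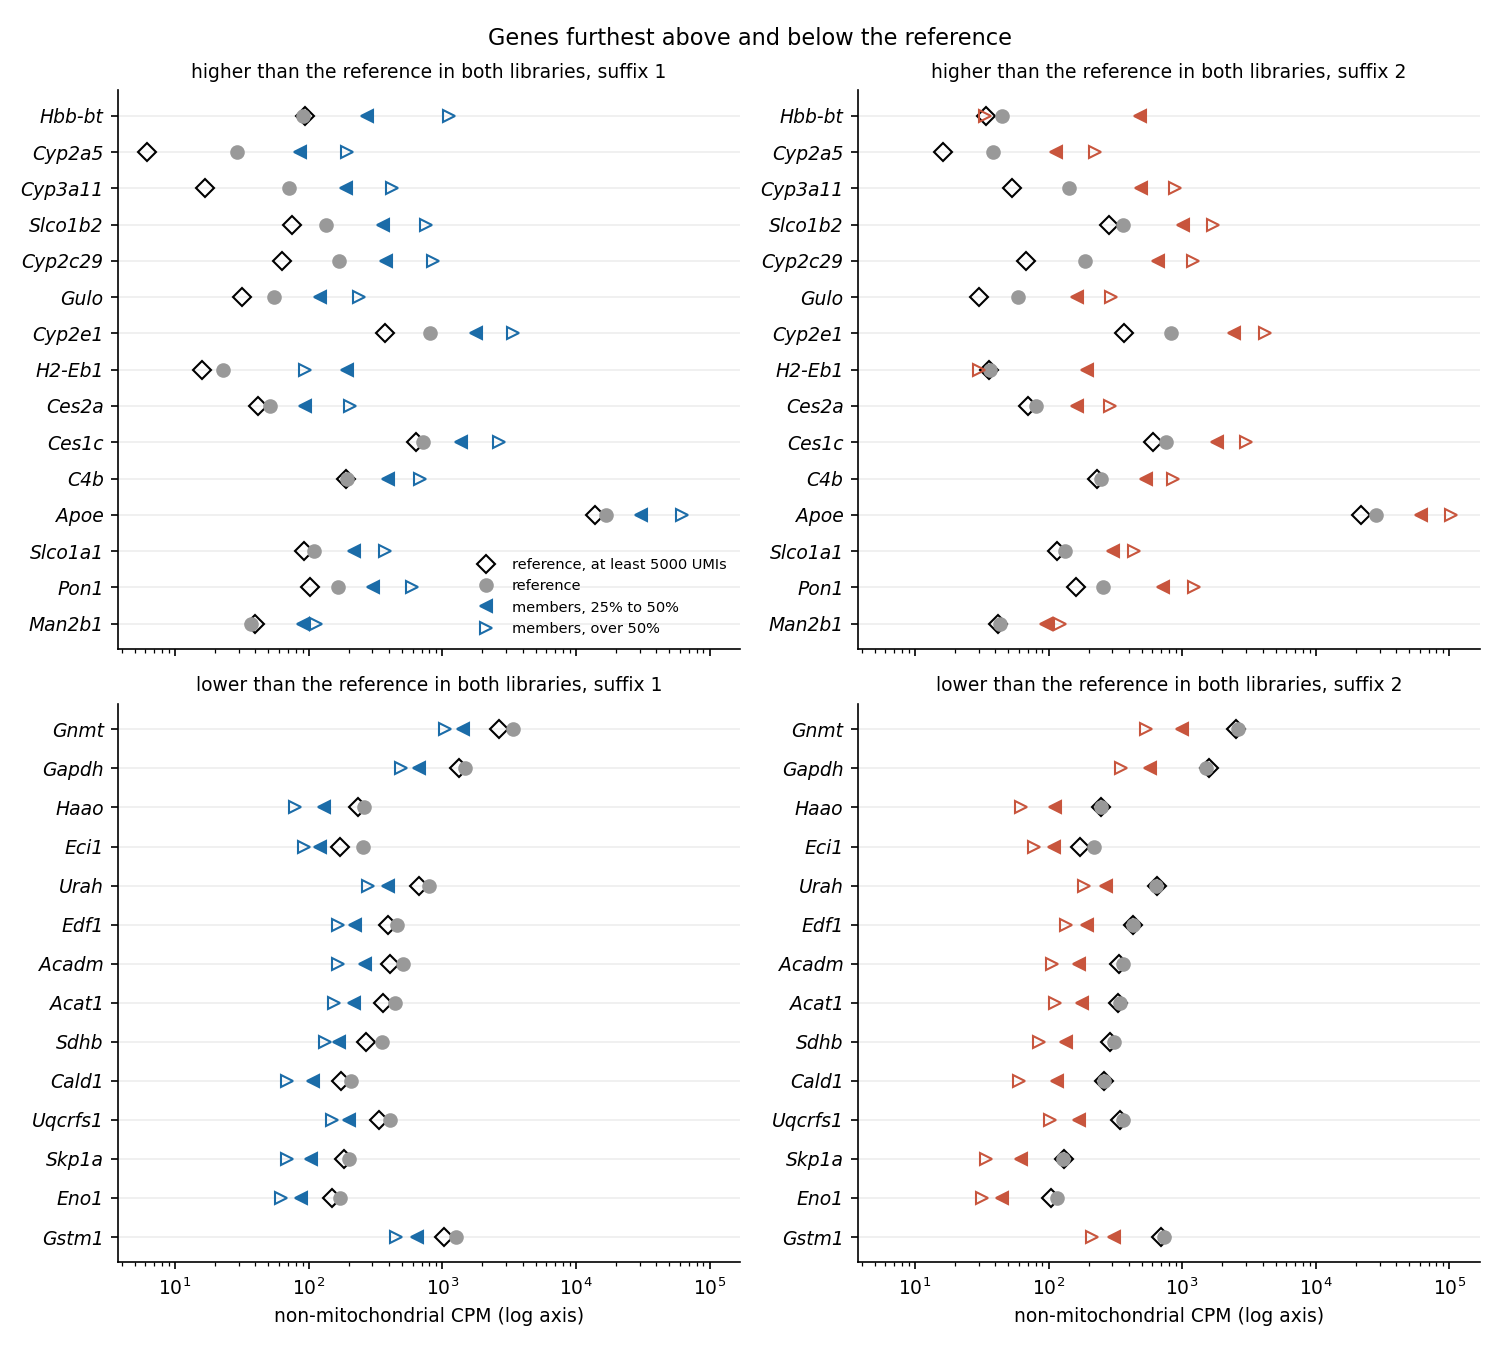
CPM outside the mitochondrial genes (log axis) of the 15 genes highest and 14 of the 15 lowest in mitochondria-rich droplets relative to the reference, for deep reference droplets, reference droplets and mitochondria-rich droplets of 25% to 50% and over 50%, one panel per library. Apoe, Cyp2e1 and Slco1b2 climb from the reference to the droplets over 50%, and Gnmt, Gstm1 and Gapdh descend.

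Transcripts of soluble cytosolic enzymes and binding proteins made up less of it. All 37 genes of this list were lower in mitochondria-rich droplets in both libraries, 13 of them by at least 2-fold with suffix 1 and 30 with suffix 2, where 5.23% and 33.3% of all genes were. With the hepatocyte cut on both sides, 6 were 2-fold lower with suffix 1, where 6.57% of all genes were. The median log2 ratio was -0.95 with suffix 1 and -1.33 with suffix 2, which is 0.73 and 0.58 below that of all genes. Relative to the median gene, 36 and 34 of the 37 lay below it, 3 and 2 of them by at least 2-fold. Of all genes, 56 of 7457 and 17 of 7108 were 2-fold lower on that scale. The list held 30655 CPM against 61555 CPM and 20826 CPM against 51826 CPM.

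Gnmt, the glycine methyltransferase that sets the level of S-adenosylmethionine, had the smallest ratio of all genes that could be named. With suffix 1, Gnmt (chr17:46725664-46729168, minus strand) was at 1269 CPM (1244 to 1293) in mitochondria-rich and 3387 CPM in reference droplets, 2.67-fold lower. With suffix 2 it was at 736 CPM (720 to 752) and 2621 CPM, 3.56-fold lower. Per droplet this was 1.81 against 8.73 UMIs and 0.947 against 7.85 UMIs. Lymphoid droplets, which were deeper, held more Gnmt UMIs each than mitochondria-rich droplets, at 2.85 and 1.18. Gnmt was lower over 50% (1054 and 538 CPM) than at 25% to 50% (1436 and 997 CPM), and deep reference droplets held 2640 and 2551 CPM.

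Glycolytic, amino acid and lipid enzymes shared this side. Gapdh was at 595 against 1481 CPM with suffix 1 and 447 against 1519 CPM with suffix 2. Gstm1, a glutathione transferase, was at 562 against 1266 CPM and 254 against 735 CPM. Ass1, the urea cycle enzyme that joins citrulline and aspartate, was at 1299 against 2641 CPM and 975 against 2974 CPM. Pck1, the entry enzyme of gluconeogenesis, was 1.93-fold and 2.96-fold lower, and Fasn, fatty acid synthase, 1.53-fold and 2.44-fold lower. Fabp1, the fatty acid binding protein of the cytosol, was 1 of the 10 genes that chose the reference droplets, so its 13816 against 29359 CPM and 9708 against 22423 CPM are a description only. It was the only gene of those 10 past 2-fold in either library.

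Nuclear-encoded genes for mitochondrial proteins were lower, not higher, in the droplets rich in mitochondrial transcripts. Of the nuclear-encoded subunits of the respiratory chain and ATP synthase, all 76 compared with suffix 1 and all 75 compared with suffix 2 lay below a ratio of 1, 14 and 53 of them by at least 2-fold, where 5.23% and 33.3% of all genes were. With suffix 1, the 14 became 6 against deep reference droplets and 7 with the hepatocyte cut on both sides, where 4.75% and 6.57% of all genes were lower. The median log2 ratio was -0.88 and -1.09, and the list held 28987 against 51223 CPM and 21271 against 43505 CPM. Against deep reference droplets the medians were -0.67 and -1.05, where those of all genes were -0.40 and -0.88. With the hepatocyte cut on both sides they were -0.80 and -1.05, against -0.49 and -0.97 for all genes. Relative to the median gene, 75 of 76 and 62 of 75 lay below it, and none was 2-fold lower.

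Uqcrq, a small subunit of complex III, was at 980 against 2010 CPM with suffix 1 and 653 against 1658 CPM with suffix 2. Uqcrfs1, the Rieske protein of the same complex, was at 179 against 406 CPM and 131 against 360 CPM, and Sdhb, the iron-sulfur subunit of complex II, at 153 against 352 CPM and 107 against 309 CPM. Ndufa4 showed a smaller difference, 1.60-fold and 1.55-fold lower, and with suffix 2 it lay above the median gene.

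Enzymes of the mitochondrial matrix gave the same picture with exceptions. Of 30 genes, 28 were lower in each library, 7 and 21 by at least 2-fold, with medians of -0.87 and -1.22 on the log2 scale. Of all genes, 5.23% and 33.3% were 2-fold lower, and against deep reference droplets the 7 became 2, with 4.75% of all genes. Below the median gene lay 27 and 23. Acadm, which oxidises medium-chain fatty acids, was at 220 against 510 CPM and 133 against 358 CPM. Acat1, the thiolase of ketone metabolism, was at 191 against 442 CPM and 139 against 344 CPM. Cps1, the first enzyme of the urea cycle and abundant in the matrix, differed by only 1.04-fold with suffix 1 (1261 against 1208 CPM) and 0.952-fold with suffix 2 (1480 against 1554 CPM).

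Mitochondrial ribosomal proteins, which translate the mitochondrial transcripts, were all lower too. All 77 genes compared lay below a ratio of 1 in both libraries, 18 and 63 of them by at least 2-fold, where 5.23% and 33.3% of all genes were. The median log2 ratios were -0.86 and -1.14, and all 77 lay below the median gene as well. Against deep reference droplets, 2 of 77 were 2-fold lower with suffix 1, where 4.75% of all genes were. With suffix 2, 14 of 77 lay above the median gene against deep reference droplets, and 14 also with the hepatocyte cut on both sides. Factors of mitochondrial transcription and biogenesis had medians of -0.57 and -0.87 over 18 and 16 genes compared, of which 14 and 10 lay below the median gene. With the hepatocyte cut on both sides, 10 of 18 and 8 of 16 lay below it, so the list was then close to the median gene. Tfam, which packages mitochondrial DNA and starts its transcription, was at 26.7 against 34.8 CPM and 32.9 against 41.7 CPM, the latter above the median gene. Mitochondrial chaperones, proteases and mitophagy genes had medians of -0.83 and -1.12, with 3 of 16 and 12 of 17 genes at least 2-fold lower (5.23% and 33.3% of all genes) and none 2-fold higher, and 13 in each library lay below the median gene. The mitochondrial chaperonin gene Hspd1 was 2.03-fold and 2.13-fold lower.

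**Figure D4:**
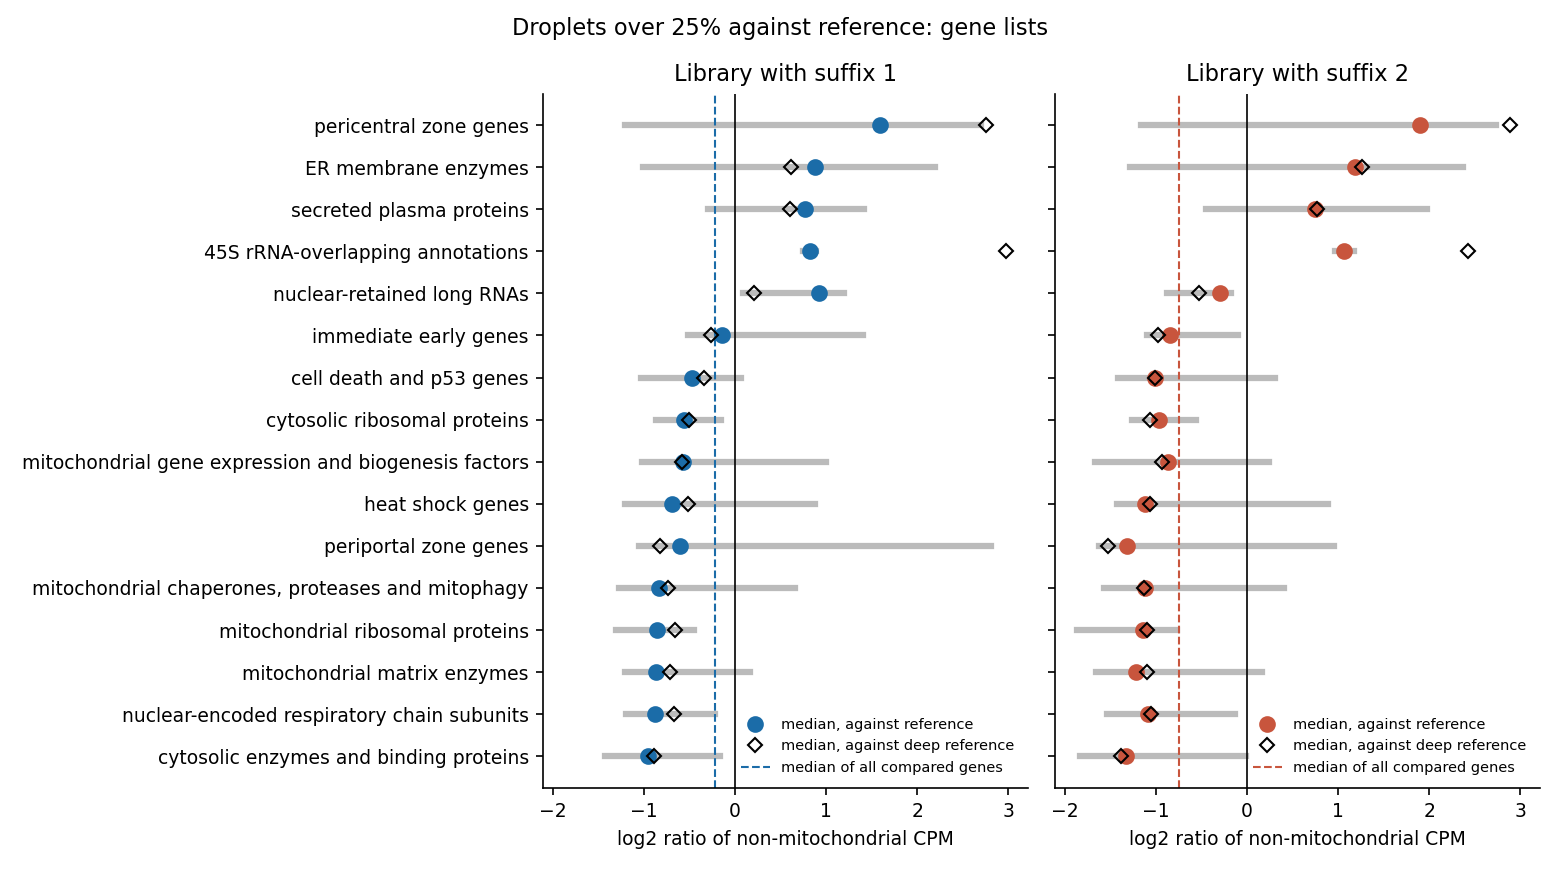
Log2 ratio of mitochondria-rich to hepatocyte reference droplets (horizontal axis) for each gene list, with the median as a filled dot, the range over genes as a grey bar and the median against deep reference droplets as an open diamond, one panel per library with the median of all genes as a dashed line. Secreted proteins and ER membrane enzymes lie to the right of 0 with medians of 0.75 to 1.19, and cytosolic enzymes, respiratory chain subunits and both kinds of ribosomal protein to the left.

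Cytosolic ribosomal protein genes, a main class of short abundant transcripts, were lower too. With suffix 1, all 82 genes compared were lower, none by 2-fold, where 5.23% of all genes were, and the median log2 ratio was -0.56. With suffix 2 the median was -0.96 and 32 of 82 were at least 2-fold lower, a share near the 33.3% of all genes. These became 75 of 82 and a median of -1.18 with the hepatocyte cut on both sides, where 47.0% of all genes were lower, and 55 of 82 and -1.06 against deep reference droplets, where 41.0% were. Rpl41 was at 1110 against 1921 CPM and 534 against 1279 CPM. Below the median gene lay 81 and 77 of the 82. Rplp1 was at 1576 against 2152 CPM and 990 against 1803 CPM.

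These differences went on along the mitochondrial share and were not a step at 25%. Among droplets past the hepatocyte cut, secreted plasma proteins held 14.5% of UMIs outside the mitochondrial genes at 0% to 5% mitochondrial share, 22.0% at 25% to 35%, 29.3% at 55% to 65% and 35.3% above 75% with suffix 1. With suffix 2 these shares were 18.4%, 22.7%, 35.8% and 37.2%. Cytosolic enzymes went the other way, from 6.98% over 4.41% and 2.81% to 1.98% with suffix 1 and from 5.51% over 3.74% and 1.71% to 1.54% with suffix 2. ER membrane enzymes went from 1.55% to 4.52% and from 1.76% to 4.84%, and cytosolic ribosomal proteins from 7.44% to 2.7% and from 6.43% to 2.13%. The steps below 25% were small with suffix 2, where secreted proteins held 19.0% at both 5% to 15% and 15% to 25%. The median depth changed along this axis as well, and its part in the trend was not tested.

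**Figure D5:**
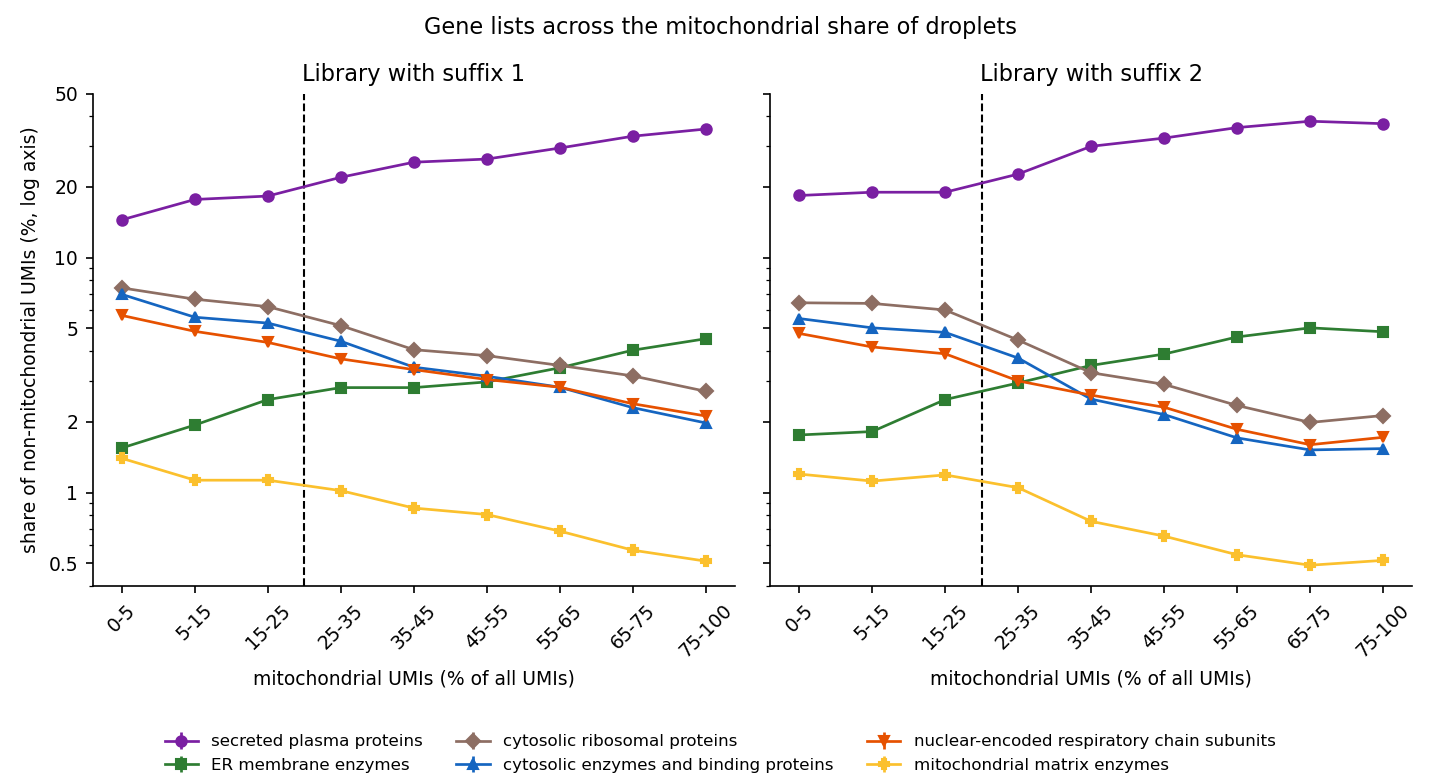
Share of UMIs outside the mitochondrial genes (percent, log axis) held by 6 gene lists against the share of mitochondrial UMIs of the droplets (percent). Droplets past the hepatocyte cut are shown, one panel per library, with exact Poisson 95% intervals and a dashed line at 25%. Secreted proteins and ER membrane enzymes climb and the other 4 lists descend across most of the range in both libraries.

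Liver lobules are zoned, with drug metabolism strongest around the central vein and urea synthesis and gluconeogenesis around the portal tract. Pericentral genes had a median log2 ratio of 1.59 with suffix 1 and 1.90 with suffix 2, and 8 and 9 of 12 compared were at least 2-fold higher. In each library, 1 of the 12 was at least 2-fold lower. Above the median gene lay 9 and 11 of the 12. Among droplets past the hepatocyte cut, the list's share of UMIs outside the mitochondrial genes did not change in one direction with mitochondrial share. With suffix 1 it was 0.309% at 0% to 5% mitochondrial UMIs, 0.0979% at 15% to 25%, 0.27% at 25% to 35% and 0.641% above 75%. With suffix 2 these were 0.260%, 0.108%, 0.230% and 0.634%. The droplets with the lowest mitochondrial share thus held more of these transcripts than those just under the limit of 25%. Against deep reference droplets, 10 genes were at least 2-fold higher with suffix 1 and 9 with suffix 2, where 7.86% and 4.44% of all genes were, and 0 were 2-fold lower, where 4.75% and 41.0% of all genes were. Periportal genes had medians of -0.60 and -1.31, with 8 of 14 below the median gene in each library. Of the 14, 1 was at least 2-fold higher and 2 were lower with suffix 1, and 0 were higher and 8 lower with suffix 2. Of all genes, 9.90% were higher and 5.23% lower with suffix 1, and 3.50% higher and 33.3% lower with suffix 2. The suffix 1 counts became 0 and 0 of 14 with the hepatocyte cut on both sides, where 2.66% and 6.57% of all genes were called, and 1 and 5 against deep reference droplets, where 7.86% and 4.75% were.

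The zone lists overlap with the lists of protein location. Cyp2e1, Cyp1a2, Cyp2a5, Cyp2c37 and Cyp2c50 are both pericentral and ER enzymes, and Slc1a2, a glutamate transporter of the cell membrane, was at 56.6 against 8.70 CPM with suffix 1 and 97.5 against 14.7 CPM with suffix 2. The pericentral genes with cytosolic products lay below a ratio of 1. Glul, glutamine synthetase of the innermost pericentral cells, was at 82.2 against 139 CPM and 41.0 against 47.5 CPM, with suffix 2 above the median gene, and Rgn, regucalcin, at 304 against 704 CPM and 227 against 506 CPM. Glul was higher than in deep reference droplets, at 63.3 and 26.5 CPM, while Rgn had no common side, at 223 and 306 CPM there. In the periportal list, Pigr, a membrane receptor that carries immunoglobulin A, was at 1618 against 917 CPM and 1435 against 740 CPM. Which of zone and protein location moved with the mitochondrial share cannot be told apart from these genes.

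The ratio of an ER enzyme to a cytosolic enzyme within the same droplets does not depend on the total. Per Gnmt UMI, 2.0 (1.91 to 2.01) Cyp2e1 UMIs were counted in mitochondria-rich and 0.238 (0.234 to 0.242) in reference droplets with suffix 1. With suffix 2 the ratio was 4.64 (4.54 to 4.75) against 0.313 (0.307 to 0.321). It was 1.24 and 2.43 at 25% to 50% and 3.22 and 7.74 over 50%. In deep reference droplets it was 0.142 and 0.144, the lowest of these classes. Both genes were among those with the most extreme ratios, so their ratio is a description of the same contrast.

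Free RNA in the suspension adds UMIs to every droplet, and lymphoid droplets can hold hepatocyte transcripts from it or from doublets, which were not removed. In 886 and 785 such droplets, with at most 25% mitochondrial UMIs, under the hepatocyte cut and with at least 3 T, NK or B cell marker UMIs and fewer of the other marker lists, the Cyp2e1 to Gnmt ratio was 0.738 (0.694 to 0.783) and 2.07 (1.92 to 2.24). These values lay between those of reference and mitochondria-rich droplets in both libraries. The ratio of Alb to Gnmt was ordered likewise, at 11.2, 19.7 and 51.4 in reference, lymphoid and mitochondria-rich droplets with suffix 1 and at 16.7, 43.5 and 98.5 with suffix 2. The hepatocyte UMIs of lymphoid droplets thus had the makeup of neither class. The part of free RNA in the values of the shallow mitochondria-rich droplets was not tested.

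Counting droplets in place of UMIs gave the same order for Cyp2e1 and Gnmt. After each droplet was thinned to 500 UMIs outside the mitochondrial genes, Cyp2e1 was seen in 72.2% of mitochondria-rich and 46.7% of reference droplets with suffix 1, and in 80.3% and 50.4% with suffix 2. Lymphoid droplets gave 19.9% and 23.6%. Gnmt was seen in 45.6% against 77.1% and 29.8% against 62.6%. Unthinned, Cyp2e1 was seen in 89.3% against 80.5% and 93.2% against 85.9%, with lymphoid values of 84.8% and 87.9% at median depths of 4351.5 and 3866 UMIs. Thinning left out 44 and 84 mitochondria-rich droplets and 13 and 36 reference droplets.

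RNAs that stay in the nucleus had no common side of 0, with median log2 ratios of 0.92 and -0.29 over 4 genes, of which 4 and 3 lay above the median gene. Malat1, the most counted of them, was at 3863 CPM in mitochondria-rich and 1685 CPM in reference droplets with suffix 1, and at 1893 and 2138 CPM with suffix 2. With suffix 1, its log2 ratio of 1.20 turned to -0.44 among droplets of 500 to 2000 UMIs outside the mitochondrial genes. Of the 4 RNAs, 2 were 2-fold higher than in the reference with suffix 1 and 0 with suffix 2, where 9.90% and 3.50% of all genes were. Against deep reference droplets, the median was 0.21 with suffix 1, and 0 were 2-fold higher, where 7.86% of all genes were. With suffix 2, 1 was 2-fold lower there, where 41.0% of all genes were. In both libraries Malat1 was lower over 50% than at 25% to 50%, at 2515 against 4912 CPM and 761 against 3391 CPM. Neat1, the scaffold of paraspeckles, was at 182 against 170 CPM and 90.0 against 166 CPM. Thinned to 500 UMIs, Malat1 was seen in 20.7% and 14.5% of mitochondria-rich droplets, 17.9% and 20.7% of reference droplets and 97.5% and 97.2% of lymphoid droplets. Deep reference droplets gave 41.1% and 35.1%. All of these classes were thus below the lymphoid droplets, and mitochondria-rich droplets were also below deep reference droplets. Gm42418 and AY036118, which overlap the 45S ribosomal RNA repeat and can collect its reads, were higher in both libraries: Gm42418 was at 36164 against 21572 CPM and 35414 against 18073 CPM, with 7399 and 9312 CPM in deep reference droplets. Among droplets past the hepatocyte cut, the summed share of both did not change in one direction with mitochondrial share. It was 3.48% at 0% to 5% mitochondrial UMIs, 0.948% at 15% to 25%, 3.3% at 25% to 35% and 3.25% above 75% with suffix 1, and 2.57%, 1.09%, 2.28% and 3.84% with suffix 2. The droplets with the lowest mitochondrial share thus held about as much with suffix 1 as those at 25% to 35% and above 75%.

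Heat shock genes had medians of -0.69 and -1.12, where those of all genes were -0.22 and -0.75, and 9 of 10 and 5 of 8 lay below the median gene. Of those compared, Hspa5, the chaperone of the ER lumen, was the only one above a ratio of 1, at 1109 against 601 CPM with suffix 1 and 1413 against 763 CPM with suffix 2. Its cytosolic relative Hspa8 was at 571 against 788 CPM and 353 against 752 CPM, and the co-chaperone gene Dnaja1 at 208 against 444 CPM and 162 against 360 CPM. Genes of cell death and the p53 response had medians of -0.47 and -1.01 over 12 and 10 genes compared, with 1 and 5 at least 2-fold lower (5.23% and 33.3% of all genes) and none 2-fold higher, and 7 and 6 lay below the median gene. Bax, which opens the outer mitochondrial membrane in apoptosis, was at 24.5 against 34.9 CPM and 28.7 against 38.1 CPM, with suffix 2 above the median gene. Immediate early genes had medians of -0.14 and -0.84, close to those of all genes, and 6 and 4 of 9 lay above the median gene. Klf6 and Klf2 were at least 2-fold higher with suffix 1, at 17.6 against 6.68 CPM and 26.3 against 11.7 CPM, 2 of 9 genes compared where 9.90% of all genes were. With suffix 2, 0 of 9 were 2-fold higher and 3 were lower, where 3.50% and 33.3% of all genes were. With suffix 1 and the hepatocyte cut on both sides, 0 of 8 compared were 2-fold higher, near the 2.66% of all genes, and all 8 lay below a ratio of 1. With suffix 2 and this cut, 8 of 11 were 2-fold lower, where 47.0% of all genes were.

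Markers of other cells differed by list and by library. The 12 Kupffer and macrophage markers summed to 876 against 180 CPM with suffix 1 and 690 against 414 CPM with suffix 2. With the hepatocyte cut on both sides the level was 367 against 182 CPM and 456 against 447 CPM. Endothelial markers were at 204 against 53.1 CPM and 187 against 115 CPM, or 128 against 53.2 CPM and 154 against 127 CPM with the cut on both sides. None of the Kupffer or endothelial markers was at 0 in these classes.

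Stellate cell markers stayed higher with the cut. Their sum was at 150 against 37.1 CPM with suffix 1 and 263 against 81.6 CPM with suffix 2, and at 148 against 36.4 CPM and 259 against 88.5 CPM with the cut on both sides. Dcn, a matrix proteoglycan, was at 79.4 against 16.3 CPM and 142 against 39.0 CPM. Droplets with at least 3 stellate marker UMIs were 1.43% and 2.72% of mitochondria-rich and 0.449% and 1.25% of reference droplets, and deep reference droplets held 13.4 and 22.0 CPM of these markers. Cholangiocyte markers were low, with at least 3 UMIs of them in 3 of 5679 droplets (0.0528%) and in 0 of 8913, for which the 95% interval reached 0.0414%. Reference droplets reached that count more often, in 21 of 9587 (0.219%) and 12 of 4161 (0.288%).

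T cell, NK cell and B cell markers summed to 76.5, 25 and 70.7 CPM with suffix 1, where the reference droplets had 35.3, 15.1 and 79.7 CPM. With suffix 2 they summed to 72.2, 23.4 and 65.1 CPM against 81.3, 37.8 and 85.4 CPM. T cell markers, with the hepatocyte cut on both sides, were at 31.9 against 37.0 CPM, NK cell markers at 17.3 against 15.6 CPM and B cell markers at 35.4 against 85.0 CPM with suffix 1. With suffix 2 they were at 38.4 against 93.5 CPM, 15.1 against 43.4 CPM and 40.6 against 93.3 CPM. The higher T cell level with suffix 1 was thus not seen with the cut. Neutrophil markers were lower in both, at 111 against 179 CPM and 74.2 against 142 CPM, with Ly6g at 0 in the mitochondria-rich droplets. Against deep reference droplets, at 65.5 and 23.1 CPM, the direction of the sum turned. Monocyte and dendritic cell markers were at 90.6 against 10.9 CPM and 48.2 against 27.1 CPM, and with the cut at 12.9 against 11.0 CPM and 17.1 against 30.7 CPM. The excess with suffix 1 was thus nearly absent with the cut.

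Hbb-bt and H2-Eb1, which entered the 15 genes with the largest ratios, changed with the hepatocyte cut, although Hbb-bt with suffix 1 stayed well above a ratio of 1. The globin gene Hbb-bt was 7.12-fold and 5.06-fold higher, but 4.82-fold and 0.96-fold with the hepatocyte cut on both sides. Of the 5 erythroid markers, 2 were 2-fold higher and 0 lower with suffix 1, and 1 was higher and 1 lower with suffix 2, with median log2 ratios of 0.99 and 0.18. Of all genes, 9.90% were higher and 5.23% lower with suffix 1, and 3.50% higher and 33.3% lower with suffix 2. With the cut on both sides, 1 was higher with suffix 1, where 2.66% of all genes were, and 0 were higher and 3 lower with suffix 2, where 2.92% and 47.0% were. The medians were then 0.33 and -1.3. Droplets with at least 3 erythroid UMIs were fewer among mitochondria-rich than reference droplets, at 7.1% against 9.02% and 1.51% against 6.99%. H2-Eb1, a class II antigen-presenting gene of immune cells, was 6.6-fold and 2.8-fold higher, but 1.2-fold and 0.842-fold with the cut. Cyp2e1, by contrast, was 3.33-fold and 4.26-fold higher with the cut, and Apoe 2.89-fold and 3.17-fold.

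Cebpa is the gene the study deleted. It lies at chr7:35119293-35121928 on the plus strand and was at 8.62 CPM (6.72 to 10.9) in mitochondria-rich and 1.17 CPM (0.786 to 1.69) in reference droplets with suffix 1, and at 62.8 CPM (58.3 to 67.6) and 110 CPM (104 to 116) with suffix 2. The class with the higher level was not the same in both. With suffix 1, mitochondria-rich droplets past the hepatocyte cut held 2.06 CPM (1.15 to 3.39), or 1.58-fold the level of reference droplets under the same cut. Thinned to 500 UMIs, Cebpa was seen in 0.106% (0.0391% to 0.232%) of mitochondria-rich, 0.0418% (0.0114% to 0.107%) of reference and 0.113% of lymphoid droplets with suffix 1, a level of background. With suffix 2 these were 2.98%, 4.29% and 0.382%. Spp1, the gene of the secreted protein osteopontin and the study's subject, was at 495 against 698 CPM with suffix 1 and 68.0 against 82.7 CPM with suffix 2. By summed UMIs it lay below a ratio of 1 in both, with suffix 2 above the median gene, and its level in deep reference droplets was 1071 and 85.7 CPM. By droplets thinned to 500 UMIs, the direction turned with suffix 1, where Spp1 was seen in 20.2% (19.1% to 21.2%) of mitochondria-rich and 15.5% (14.8% to 16.2%) of reference droplets. With suffix 2 the shares were 3.26% and 3.47%, and lymphoid droplets gave 4.18% and 0.510%. Unthinned, Spp1 was seen in 37.1% against 36.0% and 6.75% against 11.9%, with lymphoid values of 37.0% and 4.84%.

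A small number of barcode sequences occurred in both libraries. There were 81, of which 14 were over 25% mitochondrial with suffix 1, 42 with suffix 2 and 9 in both.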

How the data were processed

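The authors deposited 1 matrix of whole-number UMI counts for 32285 genes and 32316 barcodes, with a barcode suffix of 1 or 2 for the library. The submitters' processing notes name bcl2fastq 2.20.0, Cell Ranger 7.1.0, STAR 2.7.2a and the build mm10. The chemistry was 10x 3' v3.1. How cells were called, the annotation and the use of intronic reads were not given in the sources used here. The libraries held 60048646 and 52355243 UMIs.

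Barcodes with at least 500 UMIs were kept (15 were below) and split at 25% mitochondrial UMIs. UMIs were summed per class and library and scaled to 1000000 UMIs outside the 13 mitochondrial genes, with exact Poisson 95% intervals. Shares of UMIs held by gene lists also had exact Poisson intervals. Shares of droplets and of mitochondrial UMIs had exact binomial (Clopper-Pearson) 95% intervals. Both kinds cover counting error only. Sums under 3 UMIs were set to 3 UMIs in ratios. No doublet caller was run and doublets remain. The suffixes are unassigned libraries, so no genotypes were compared.

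The members and lists were chosen with earlier results of these data known. Genes were named by a rule: 15 with the highest and 15 with the lowest ratios and with the same direction in both libraries, from genes with at least 100 CPM, ranked by the ratio nearer to 1, up to 4 genes per list with the most UMIs, and Cebpa, Spp1, Alb and the mitochondrial genes. The 10 genes of the reference rule were left out. Of the 15 lowest, 1 gene is not reported here. Other genes named were chosen after their values were seen. Positions and sequences were read from GENCODE M21 on GRCm38, which held 32235 of the gene IDs, and may differ from the annotation the counts were made on. Python 3.11.15, numpy 2.4.6, scipy 1.17.1, pandas 2.3.3 and matplotlib 3.10.9 were used, and the scripts were tested on simulated counts. In all, 17 other settings were tried, and of these the centring on the median gene, the removal of shared barcodes and the hepatocyte cut with the deep reference were chosen after seeing the data.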

Additional observations from a re-analysis of the deposited data

How the results depend on the processing

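No paired analysis was possible because each genotype has 1 sample and no test was made. Depth limits the low genes, since a sum of 3 UMIs was the floor, and genes at 10 CPM rest on few UMIs per class. The numbers of mitochondria-rich droplets stayed within 1.5 times at limits of 20% (6137 and 9240) and 30% (5086 and 8674). Across the settings, the median log2 ratio ran from 0.51 to 1.03 and 0.67 to 1.5 for secreted proteins, from 0.50 to 1.15 and 0.96 to 1.94 for ER membrane enzymes, from -1.3 to -0.71 and -1.68 to -0.58 for cytosolic enzymes, and from -0.94 to -0.34 and -1.43 to -0.21 for cytosolic ribosomal proteins.

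The counts of genes past 2-fold moved more, and the cause was not tested unless the setting itself changes the genes compared or the fold. With suffix 1, 738 genes were higher and 390 lower in the report. The lower genes were 181 at a limit of 20%, 881 at 30%, 2335 for droplets over 50% only, and 1488 without droplets that held 3 marker UMIs of other cells. The hepatocyte cut on both sides gave 185 higher genes, and 185 higher and 674 lower genes together with the deep reference. Droplets of 500 to 2000 UMIs outside the mitochondrial genes gave 254 higher and 1136 lower genes, and means of CPM over droplets gave 235 and 893. A minimum of 100 CPM gave 87 and 156, no minimum gave 7034 and 739, a 1.5-fold limit gave 1481 and 2299, and centring on the median gene gave 1072 and 56.

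With suffix 2, 249 genes were higher and 2370 lower in the report. The lower genes were 1121 at a limit of 20%, 4605 for droplets over 50% only, and 4018 with the hepatocyte cut and the deep reference. The higher genes were 143 for droplets of 500 to 2000 UMIs and 122 for means over droplets. A minimum of 100 CPM gave 119 and 603, no minimum gave 915 and 3785, a 1.5-fold limit gave 698 and 4147, and centring on the median gene gave 1213 and 17. Higher and lower counts of suffix 2 thus traded places on centring, while the order of the genes is the same by construction.

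Of 3500 recomputed values of named genes, 1303 were marked as the same and 2160 as moved. Of 308 list medians, 80 moved past the 0.25 log2 taken as the same, and 4 lay on the other side of 0. Marked as moved were also 82 of 156 mitochondrial shares and 25 of 32 droplet shares. Of the 3500 gene values, 237 lay on the other side of 0, and 37 of these were of genes counted as at least 2-fold higher or lower in the report. With suffix 1 and the hepatocyte cut on both sides, the log2 ratios were -0.08 for Siglech, -0.08 for Cd3d, -0.06 for Ccr2 and -0.07 for Ly6c2. Against the deep reference they were 0.30 for Retnlg and 0.44 for Rgn, and against a reference of 10% to 25% mitochondrial share 1.3 and 0.87. For droplets of 500 to 2000 UMIs they were -0.17 for Siglech, -1.43 for Hbb-bs, -0.95 for Kcnq1ot1, -0.90 for Ccr2, -0.16 for Ptprb, -0.62 for Il7r and -0.44 for Malat1. Means over droplets gave -0.54 for Hbb-bs. Without droplets holding 3 marker UMIs, Ccr2 was at -0.45 and Ly6c2 at -0.02. The hepatocyte cut with the deep reference gave -0.28 for Siglech, -0.21 for Kcnq1ot1, -0.06 for Cd3d, -0.45 for Ccr2, -0.10 for Ly6c2, 0.23 for Retnlg and 0.58 for Rgn.

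With suffix 2, Hbb-bt and H2-Eb1 were at -0.42 and -0.26 for droplets over 50% only, at -0.06 and -0.25 with the hepatocyte cut on both sides, and at -0.97 and -0.38 for droplets of 500 to 2000 UMIs. S100a8 was at 1.52 against the deep reference, at 0.65 against the reference of 10% to 25% (where Gzma was at 0.54), at 1.00 without droplets holding 3 marker UMIs, and at 1.54 with the hepatocyte cut and the deep reference, where H2-Eb1 was at -0.22.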

Other observations

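The length of a gene on the genome ran along with the ratios. With suffix 1, the 1865 compared genes with the shortest spans (0.374 to 10.8 kb) had a median log2 ratio of -0.64, and the 1864 with the longest spans (64.8 to 2961 kb) had a median of 0.35. Among the longest, 343 genes were at least 2-fold higher and 15 lower, and among the shortest, 115 were higher and 199 lower. Of all genes, 9.90% were higher and 5.23% lower. With suffix 2 the medians of the shortest and the longest genes were -0.99 and -0.39, and 51 genes were higher and 878 lower in the shortest against 65 and 192 in the longest. Of all genes, 3.50% were higher and 33.3% lower. Spans were not tallied with the hepatocyte cut on both sides, where 185 of 6942 genes were higher with suffix 1. Genes of middle span lay between these medians in both libraries. Genes annotated as long noncoding RNA, 143 and 132 in number, had medians of -0.53 and -1.04, below the -0.22 and -0.74 of protein-coding genes. The part of gene length in the differences between the gene lists was not tested.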
